A study of Mus musculus with 7 samples.

Results

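Untreated tissue of Iqgap1 knockout mice was compared with untreated tissue of a wild-type mouse, on the 3 arrays that the sample titles place at day 0 of topical 4OHT, out of 7 arrays in the series. The knockout had 2 arrays and wild type had 1. All 19937 genes measured by a probe set that names a single gene symbol were compared. Levels are log2 RMA values from Affymetrix Mouse Gene 1.0 ST arrays, where 1 unit is a doubling of signal, and a difference is always the mean of the knockout arrays minus the wild-type array. Iqgap1 encodes a scaffold protein that binds kinases of the Ras-ERK cascade, the cytoskeleton and cell junctions.

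Both genotypes were on a mixed C57BL/6 and 129 strain background. The labels name topical 4OHT (4-hydroxytamoxifen, a ligand that switches on tamoxifen-dependent proteins) as the agent for every array, with 0 days of treatment at day 0 and 6 days at day 6. The 4 day 6 arrays, 2 of each genotype, enter here only for the spread between replicates and for values beside the day 0 ones. The labels call the sample mouse tissue and give no body site, age, sex, hair-cycle phase or time of day, and name no inducible protein. They do not say which part of Iqgap1 was removed. Nor do they tie replicates to different animals, and the p-values then describe only how these arrays scatter, which may be technical.

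Wild type at day 0 has no replicate. The sampling of a single piece of tissue, its hair-cycle phase and its genotype therefore cannot be told apart, and the limma test used here assumes that the lone array would vary as the other groups do. An exact permutation test of 2 arrays against 1 cannot go below p = 0.333, so calls at a threshold of 0.05 come only from limma, which pools the spread over arrays and genes. A description without any borrowed spread is given beside limma: a gene passes the fold rule when both knockout arrays lie at least 1 log2 unit from the wild-type array on the same side.

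Hair follicles cycle through growth (anagen), regression (catagen) and rest (telogen). In growth, matrix cells at the base of the follicle divide next to the dermal papilla, and their daughters become the hair shaft, built of hair keratins cross-linked by keratin-associated proteins, and the inner root sheath, built of its own keratins and trichohyalin. Pigment cells in the bulb make melanin for the shaft during growth only. At rest the shaft-forming and pigment-making cells are gone, and stem cells of the bulge and the cells around them are what is left of the follicle.

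Iqgap1 was lower on the arrays labelled knockout. At day 0 it read 9.02 and 8.99 in knockout and 9.94 in wild type, a difference of -0.94 ± 0.24 (SE; limma adjusted p = 0.0461). The day 6 levels were 8.58 and 8.67 for knockout, with 10.11 and 10.59 for wild type, so all 4 knockout arrays lay below all 3 wild-type arrays. The level in knockout stayed well above that of silent genes. The day 0 call did not hold without either knockout day 0 array (adjusted p = 0.147 and 0.157) or without either knockout day 6 array (0.0804), within a range of 0.0149 to 0.157 over 16 settings of the analysis.

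The wild-type day 0 array differed from the knockout arrays in sex-linked genes as well. At day 0 Xist, the RNA that silences an X chromosome in female cells, read 3.77 and 3.55 in knockout against 11.15 in wild type, and it read 10.30 in wild-type day 6 replicate 1 against 3.73 to 4.03 on the other day 6 arrays. Eif2s3y, a Y-linked translation factor, read 8.88 and 8.74 against 3.72. The same held for Uty (7.66 and 7.28 against 3.50) and Kdm5d (7.45 and 7.28 against 4.25). Sex and genotype thus cannot be told apart at day 0. None of these genes passed limma (adjusted p = 0.0663 for Xist, 0.124 for Eif2s3y, 0.114 for Uty and 0.0979 for Kdm5d). The wild-type day 6 arrays were far apart on them (Eif2s3y 3.72 and 9.41), which widens the pooled spread. The test can thus miss genes that differ between those arrays. Genes that should be silent on an array read 3.50 to 4.25 in this set, which serves as the background level below.

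A fit with a term for arrays with Xist signal is given beside the gene lists whose counts of calls it changes, since 2 arrays carry that signal, wild type day 0 and wild-type day 6 replicate 1. The term is estimated from the wild-type day 6 arrays alone, 1 with and 1 without Xist signal, and takes up any other difference between them. For a given spread it also widens the error of the day 0 difference, as does leaving out a knockout day 0 array. A call can thus be lost while the difference stays, and the term can also change the difference itself. Keratinocyte genes were high on all 7 arrays. Krt14, a keratin of basal epidermis, read 12.24, 12.40 and 11.71 at day 0, in knockout replicates 1 and 2 and wild type, and Krt10, a keratin of the layers above, read 12.56, 12.51 and 11.81. Genes of muscle, fat and dermis were measured at high levels too, as given below.

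At day 0 limma called 2869 of 19937 genes, or 14.4% of those tested, with 1701 (8.53%) higher in knockout and 1168 (5.86%) lower. The fold rule passed 2566 genes (12.9%), of which 1600 (8.03%) were higher in knockout and 966 (4.85%) lower. Both rules held for 1311 genes on the higher side and 810 on the lower. Counts of called list members below are to be read beside these shares of all genes. The largest differences lay on the lower side: 109 genes were lower by at least 4 log2 units on both knockout arrays, and 3 genes were higher by as much. The 2 knockout arrays lay close together, with 266 genes (1.33%) at least 1 log2 unit apart and a median gap of 0.144, against 0.368 between their mean and wild type. With 2 arrays against 1, groups that do not overlap are common: both knockout arrays lay above wild type for 36% of all genes and below it for 51.6%.

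Leaving out either knockout day 0 array lowered limma's counts to 756 higher and 483 lower (without replicate 1) or 754 and 528 (without replicate 2). With the term for Xist signal 255 genes were higher and 427 lower, and 571 of the 2869 calls (19.9%) were kept.

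**Figure D1:**
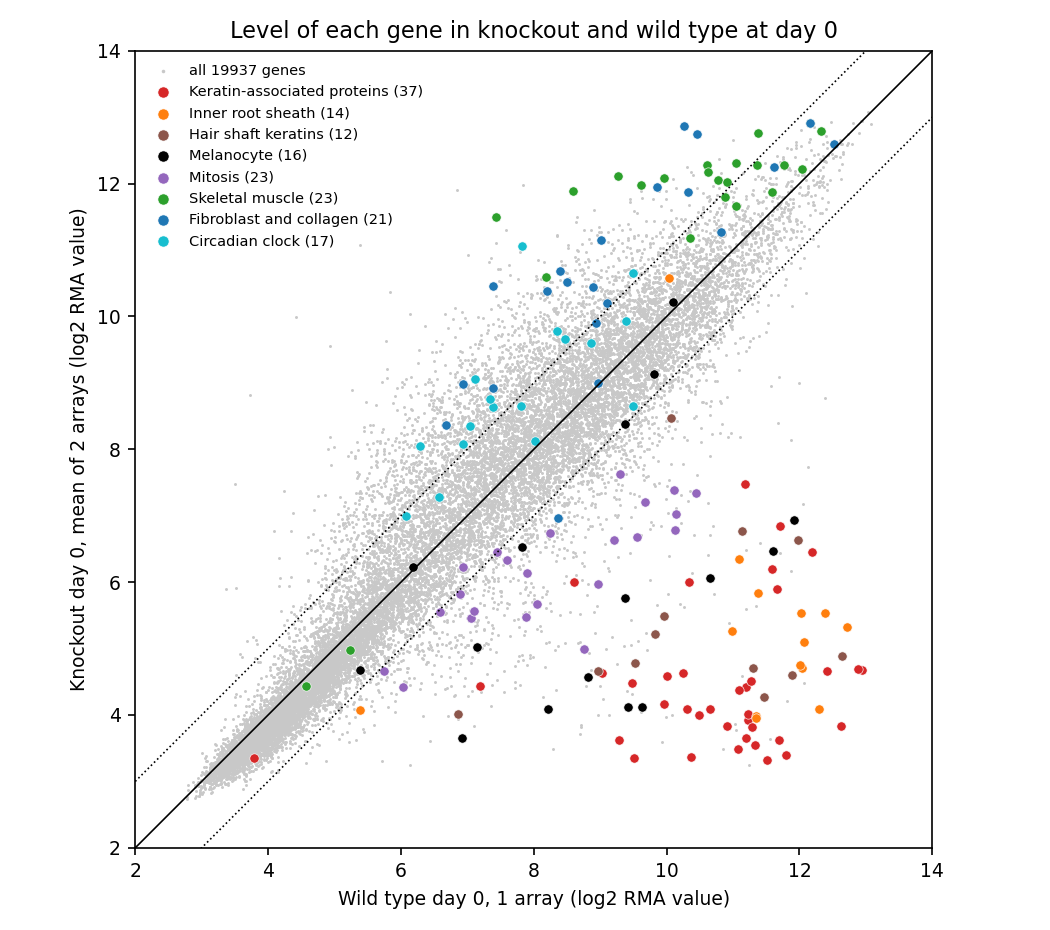
Level of each of 19937 genes in the wild-type day 0 array (x axis, log2 RMA value) against the mean of the 2 knockout day 0 arrays (y axis, log2 RMA value); the solid line marks equal levels, dotted lines 1 log2 unit either way, and colours 8 gene lists with their number of measured genes. Hair keratin, inner root sheath, keratin-associated protein and melanocyte genes sit far below the line, down to -8.79 for Krtap15, and mitosis genes below it, while most muscle, collagen and clock genes sit above it.

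The genes of the growing hair follicle made up the far end of the lower side. Of 37 measured keratin-associated protein genes, 36 were lower in knockout by each rule and 0 higher, with a median difference of -6.56 against -0.09 over all genes. Of 12 hair shaft keratin and shaft junction genes 11 were lower (median -4.67), and of 14 inner root sheath genes 13 were lower (median -6.91), again by each rule. In a bulk sample fewer cells of a type and less RNA per cell cannot be told apart, here and in every group below. Many of these genes sat at background in knockout: 19 of the 37 keratin-associated genes read at or under 4.25 on both knockout arrays, so their differences are lower limits.

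Promoters of genes at this end are shown because most hold the letters TATAAA (in capitals). These are the core of the TATA box, the element that positions the start of transcription. Each is the 120 bases before the gene's start, from RefSeq on build GRCm38.p6, 5′ to 3′.
Krtap6-1 (chr16:89031579-89031698, + strand): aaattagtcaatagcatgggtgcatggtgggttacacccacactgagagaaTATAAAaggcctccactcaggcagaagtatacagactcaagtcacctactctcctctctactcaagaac
Krtap8-1 (chr16:89487953-89488072, - strand): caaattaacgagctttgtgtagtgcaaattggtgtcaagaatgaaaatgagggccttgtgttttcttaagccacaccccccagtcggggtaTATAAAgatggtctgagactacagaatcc
Krtap11-1 (chr16:89571184-89571303, - strand): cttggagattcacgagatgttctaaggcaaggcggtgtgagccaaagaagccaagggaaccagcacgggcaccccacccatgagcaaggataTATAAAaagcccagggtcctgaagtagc
Prr9 (chr3:92123948-92124067, - strand): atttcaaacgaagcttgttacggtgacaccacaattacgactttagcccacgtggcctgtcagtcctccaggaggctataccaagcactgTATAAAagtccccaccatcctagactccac
Calhm4 (chr10:34044314-34044433, - strand): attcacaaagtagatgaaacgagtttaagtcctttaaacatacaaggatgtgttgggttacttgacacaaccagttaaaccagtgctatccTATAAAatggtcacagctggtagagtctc
Crnn (chr3:93144669-93144788, + strand): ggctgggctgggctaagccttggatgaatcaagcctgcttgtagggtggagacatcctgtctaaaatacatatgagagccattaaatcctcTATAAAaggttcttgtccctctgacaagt
Of the 15 genes with the largest lower differences 13 have a promoter entry, and 9 of these hold TATAAA on either strand within 250 bases before the start. The match began 69 bases before the start in Krtap6-1, 63 in Krtap19-5 and 28 to 32 in most others. In Gprc5d it began at 53 and was on the other strand. The share with TATAAA was 76.5% of 34 keratin-associated genes, 71.4% of 7 hair shaft genes and 69.2% of 13 inner root sheath genes with an entry, against 12.5% of 15613 tested genes. It was not particular to these lists: TATAAA was also in 71.4% of 7 Skint, 42.9% of 14 cytokine and 40.7% of 27 cornified envelope promoters. GGGCGG, the core of a GC box, was in 0 of the 34 keratin-associated promoters and in 49.3% of all. It was likewise in 0 of the 7 Skint and 3.7% of the 27 cornified envelope promoters. Searched on both strands were TATAAA, the Mitf core CATGTG, the E-box CACGTG, the Lef1 core TTCAAAG, the box CCAAT, the GC box GGGCGG, the cell cycle element TTTGAA (in 15.7% of all promoters), the letters TTTAAA (12.5%) and the longer MEF2 site of muscle genes in its A and T forms (0.0961% and 0.179%). TTTGAA overlaps the Lef1 core on the other strand, and the T form of the MEF2 site holds TATAAA. A match is a stretch of letters, not a shown binding site. TTCAAAG, the core bound by Lef1 and its relatives, was in 57.1% of the 7 hair shaft promoters, 20.6% of the keratin-associated, 7.69% of the inner root sheath and 0 of 13 hair matrix promoters, against 4.66% of all.

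Krtap15 stood at background in knockout, so its difference is a lower limit. At day 0 it read 3.89 and 3.77 in knockout and 12.62 in wild type, a difference of -8.79 ± 1.46 (SE; limma adjusted p = 0.0124). Its wild-type day 6 arrays were far apart, at 8.29 and 3.91. Krtap19-1 (3.43 and 3.23 against 11.51, difference -8.18 ± 0.46, adjusted p = 0.000245) and Krtap26-1 (4.13 and 4.05 against 10.65, -6.56 ± 0.18, 4.89e-05) had narrower errors. The mean over the 37 genes of the family was 4.51 and 4.43 in knockout, 10.68 in wild type and 4.60 to 6.22 at day 6. Krtap13 alone did not pass (3.50 and 3.20 against 3.79). Keratin-associated genes have near-identical copies that can share probes, so the value of a single member is uncertain to that extent.

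Among the hair shaft keratins, Krt86 read 4.22 and 4.32 in knockout and 11.47 in wild type (difference -7.19 ± 0.30, SE; adjusted p = 0.000108). Krt31 read 4.57 and 4.63 against 11.88 (-7.28 ± 0.39, adjusted p = 0.00021). The acidic keratins Krt32 and Krt35 read 9.52 and 11.29 in wild type and at most 4.88 in knockout. Dsg4, a desmosomal cadherin of the hair shaft, read 6.87 and 6.65 against 11.13. The member that did not pass was Dsc2, a desmosomal cadherin not limited to hair (7.79 and 9.15 against 10.07, adjusted p = 0.0741). All 12 genes lay below wild type on both knockout arrays, as 51.6% of all genes did.

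The inner root sheath keratins were as far apart. Krt28 read 3.91 and 4.05 in knockout and 11.35 in wild type (difference -7.37 ± 0.22, SE; adjusted p = 4.89e-05), and Krt26 read 3.92 and 3.98 against 11.34. Tchh, trichohyalin, the matrix protein of the sheath, read 5.67 and 5.41 against 12.02. Padi3, which converts arginines of trichohyalin to citrulline, read 5.79 and 5.89 against 11.37, and Tgm3, which cross-links it, read 6.11 and 6.59 against 11.10. Only Gata3 did not pass, a transcription factor with many roles in skin (10.45 and 10.72 against 10.04, adjusted p = 0.334). With the term for Xist signal 35 keratin-associated, 11 hair shaft and 12 inner root sheath genes were lower. The median differences of these lists were then -4.70, -4.34 and -5.83.

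Outside these lists, the 15 largest lower genes held Gprc5d, an orphan G-protein-coupled receptor (3.67 and 3.61 against 11.55, difference -7.92 ± 0.38, SE; adjusted p = 0.000162). Calhm4, of a family of large-pore channels, read 4.27 and 4.14 against 11.81, and 4.31 to 4.69 at day 6. Crnn, cornulin, of the same fused-type S100 family as trichohyalin, read 4.64 and 4.34 against 12.06, and 6.03 to 7.35 at day 6. Calhm4 was thus at its knockout level on all 4 day 6 arrays, while Crnn lay between.

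Of 21 genes that direct the hair matrix, limma called 14 lower in knockout and 0 higher (median difference -1.66). The mean over the list was 6.75 and 6.71 in knockout, 8.62 in wild type and 6.70 to 7.03 at day 6. Msx2, a homeobox factor of the matrix, read 5.74 and 5.91 in knockout and 10.02 in wild type (difference -4.20 ± 0.24, SE; adjusted p = 0.000245). Dlx3, a homeobox factor of shaft and sheath differentiation, read 7.27 and 7.46 against 10.35 (-2.98 ± 0.23, adjusted p = 0.00092). Lef1, which carries Wnt signals to hair keratin genes, read 5.02 and 5.06 against 8.36 (-3.32 ± 0.33, adjusted p = 0.00225). S100a3, a calcium-binding protein of the hair cuticle, read 5.29 and 6.00 against 11.34. The Wnt ligand Wnt11 (7.08 and 6.92 against 8.61) and Msx1 (5.36 and 5.31 against 7.11) also passed. No call was made for 7 members, and 8 or 9 passed when a knockout day 0 array was left out and 8 with the term for Xist signal.

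Signals from the dermal papilla were split. Of 16 genes, 3 were lower, 2 were higher and 11 did not pass limma. Corin, a protease of the papilla, read 4.84 and 4.79 in knockout and 7.76 in wild type (difference -2.94 ± 0.40, SE; adjusted p = 0.00619). Hhip, a decoy receptor for hedgehog ligands, read 4.32 and 4.25 against 5.39, and Trps1, a zinc-finger factor, 7.58 and 7.19 against 9.31. Fgf7, a growth factor for epithelial cells, went the other way (7.85 and 7.76 against 6.30, difference 1.51 ± 0.28, adjusted p = 0.0168), as did Sox18 (8.40 and 8.70 against 6.55), a factor also made by vessel cells. Without either knockout day 0 array 1 gene passed in each direction, and with the term for Xist signal 0 were higher and 2 lower.

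Of 17 genes of hair follicle stem cells, 4 were higher in knockout, 0 were lower and 13 did not pass (median difference 0.49). Nfatc1, a factor that holds bulge stem cells at rest, read 9.83 and 9.77 in knockout and 7.30 in wild type (difference 2.50 ± 0.20, SE; adjusted p = 0.00106), above every other array. Fgf18, a signal of the resting bulge, read 9.64 and 8.98 against 7.46 (1.85 ± 0.37, adjusted p = 0.0224). Lgr6 read 8.39 and 8.44 against 6.88 and Tcf7l1 8.22 and 8.31 against 6.97. The bulge markers Cd34 (11.99 and 11.80 against 11.30) and Sox9 (10.67 and 10.70 against 9.85) were above wild type on both arrays but did not pass. The count was 1 without knockout replicate 1, 2 without replicate 2 and 2 with the term for Xist signal.

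**Figure D2:**
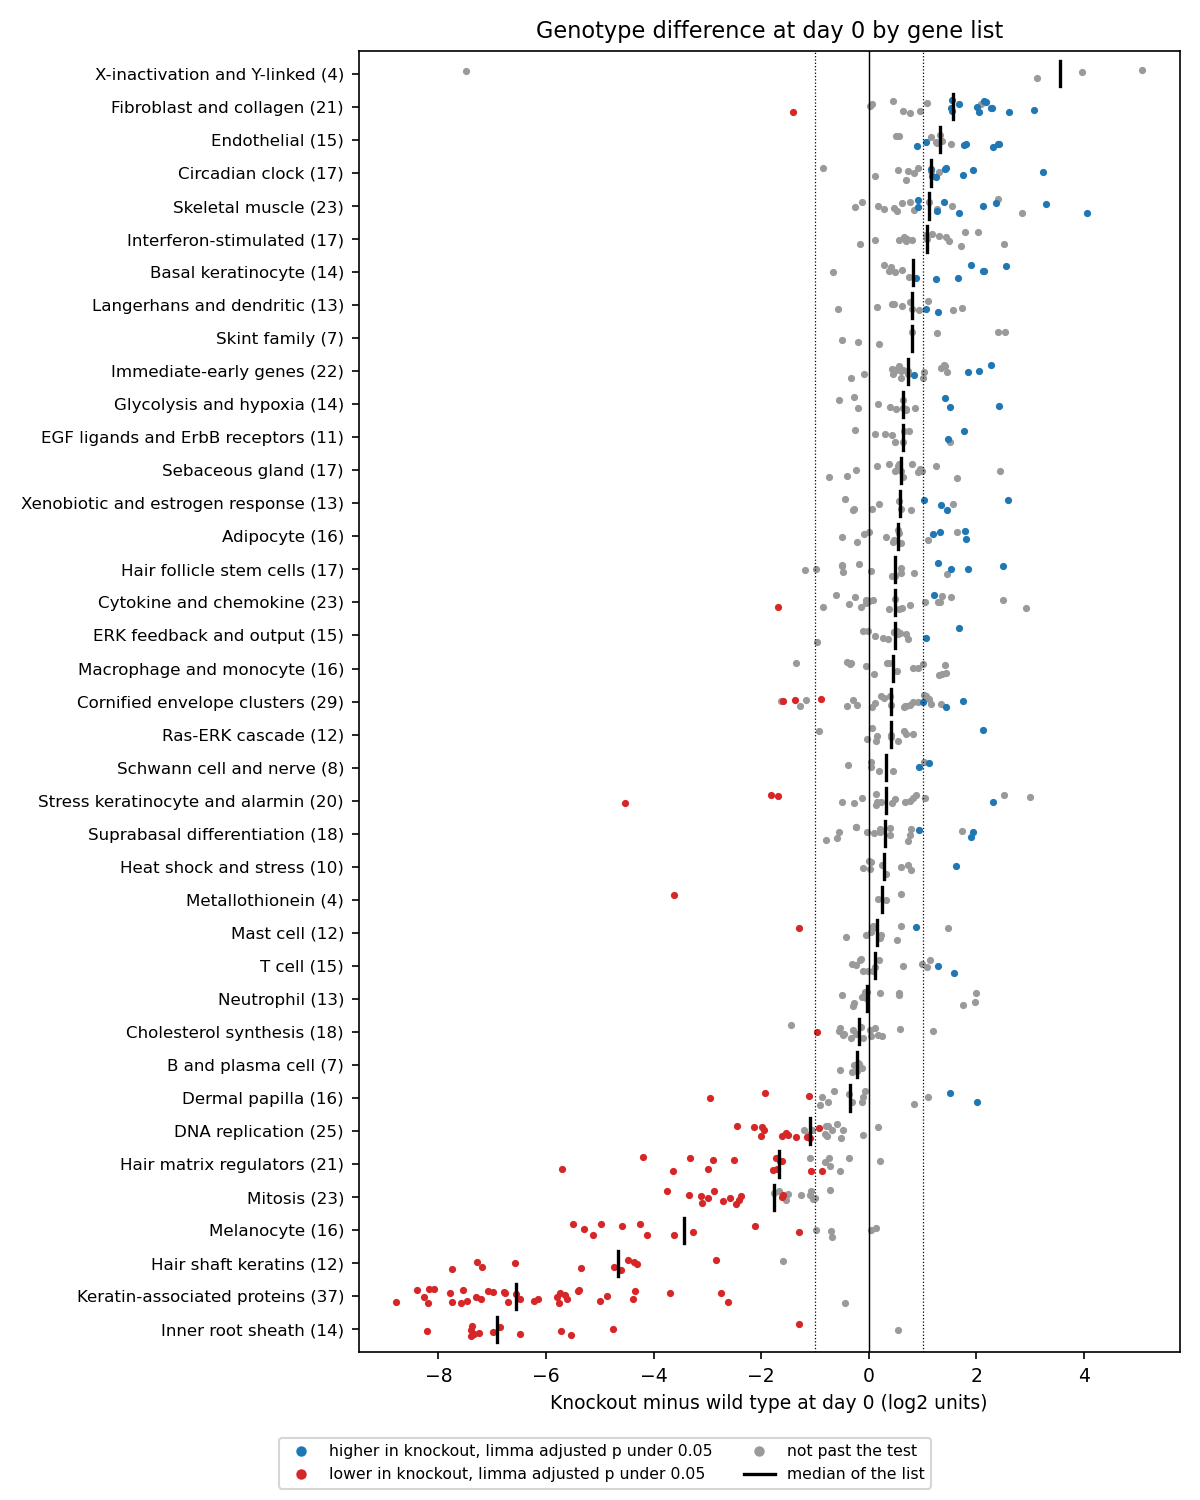
Difference between knockout and wild type at day 0 (x axis, log2 units) for each measured member of the gene lists with 4 or more members, one row per list with its number of genes; blue points are higher and red points lower in knockout with a limma adjusted p under 0.05, grey points did not pass, black bars are medians and dotted lines mark 1 log2 unit. The lists run from inner root sheath at the bottom (median -6.91) to fibroblast and collagen genes near the top (median 1.56), below the list of Xist and the Y-linked genes.

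Of 16 melanocyte genes, 11 were lower in knockout, 0 were higher and 5 did not pass (median difference -3.44), by limma and by the fold rule alike. The promoters of 3 of them are shown for the motif CATGTG (capitals, or CACATG for the other strand), the core of the site read by Mitf, the master factor of pigment cells. They are the 120 bases before the start, from RefSeq on build GRCm38.p6.
Tyr (chr7:87493513-87493632, - strand): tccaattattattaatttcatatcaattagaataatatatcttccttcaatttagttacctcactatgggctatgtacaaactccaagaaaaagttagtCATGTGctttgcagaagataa
Tyrp1 (chr4:80834093-80834212, + strand): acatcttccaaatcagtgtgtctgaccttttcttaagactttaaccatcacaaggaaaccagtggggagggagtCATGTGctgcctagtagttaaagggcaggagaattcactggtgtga
Mc1r (chr8:123406962-123407081, + strand): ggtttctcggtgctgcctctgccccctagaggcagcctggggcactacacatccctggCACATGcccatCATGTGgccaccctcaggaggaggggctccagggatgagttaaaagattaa
CATGTG was within 250 bases before the start in 70% of the 10 melanocyte genes with an entry, against 11% of all 15613. It was also in 44.4% of 27 cornified envelope and 26.5% of 34 keratin-associated promoters, which are not pigment genes.

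Tyr, tyrosinase, the first enzyme of melanin synthesis, read 4.20 and 4.05 in knockout and 9.63 in wild type (difference -5.50 ± 0.26, SE; adjusted p = 0.000162). Slc45a2 and Oca2, melanosome transporters, read 8.82 and 8.22 in wild type and at most 4.65 in knockout. Slc24a5, an exchanger of the same organelle, read 4.17 and 4.08 against 9.42 (-5.30 ± 0.25, adjusted p = 0.000156). Mlana and Pmel, a melanosome protein and its fibril protein, read 5.78 and 5.75 against 9.38 and 6.30 and 5.83 against 10.66. On each of these 6 genes the wild-type day 0 array stood alone, with the other 6 arrays between 3.97 and 7.13. Mitf itself (9.09 and 9.16 against 9.81, adjusted p = 0.108), Sox10 (6.10 and 6.35 against 6.19) and Ednrb (10.12 and 10.33 against 10.09) did not pass. With the term for Xist signal 9 were lower.

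Of 23 mitosis genes limma called 13 lower in knockout and 0 higher (median difference -1.77). All 23 lay below wild type on both knockout arrays, as 51.6% of all genes did, and 20 by at least 1 log2 unit, against 4.85% of all. Mad2l1, of the spindle checkpoint, read 6.82 and 6.76 in knockout and 10.13 in wild type (difference -3.34 ± 0.21, SE; adjusted p = 0.000402). Bub1, a checkpoint kinase, read 5.01 and 4.98 against 8.75 (-3.76 ± 0.33, adjusted p = 0.00147). Cdk1, the kinase that starts mitosis, read 6.75 and 7.31 against 10.15 (-3.12 ± 0.30, adjusted p = 0.00205). Ccnb2, Nusap1 and Aurkb, a cyclin, a spindle protein and a kinase of chromosome passage, differed by -3.10, -2.99 and -2.58.

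For mitosis genes it was the knockout day 0 arrays that stood apart. Their mean over the list was 6.11 and 6.26, against 8.25 in wild type at day 0 and 8.24 to 9.17 on the 4 day 6 arrays. Those 4 arrays are of treated tissue and give no baseline for untreated tissue. The means therefore do not show which genotype was unusual at day 0. For hair shaft genes wild type at day 0 stood apart instead, with a mean of 10.47. The knockout means were 5.34 and 5.41, and those at day 6 were 5.60 to 6.26. With the term for Xist signal 20 mitosis genes were lower, and without a knockout day 0 array 11 or 12. CCAAT, which many cell cycle promoters hold, was in 82.4% of the 17 mitosis promoters with an entry against 38.8% of all, and TATAAA in 0 of the 17. CCAAT was as common in other lists, with 100% of 15 cholesterol synthesis, 83.3% of 6 nerve and Schwann cell and 73.3% of 15 clock promoters.

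Of 25 DNA replication genes, 12 were lower in knockout, 0 were higher and 13 did not pass (median difference -1.09). Prim1, a primase subunit, read 5.84 and 6.13 in knockout and 7.96 in wild type (difference -1.98 ± 0.22, SE; adjusted p = 0.00335). The clamp loader subunits Rfc3 (6.16 and 6.82 against 8.50), Rfc4 (8.24 and 8.23 against 10.69) and Rfc5 (8.21 and 8.44 against 9.87) all passed, as did Tyms, which makes thymidylate (6.81 and 7.52 against 9.30), and Gins1 of the replicative helicase (4.78 and 5.26 against 6.97). Without a knockout day 0 array 5 or 7 passed, and 8 did with the term for Xist signal.

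**Figure D3:**
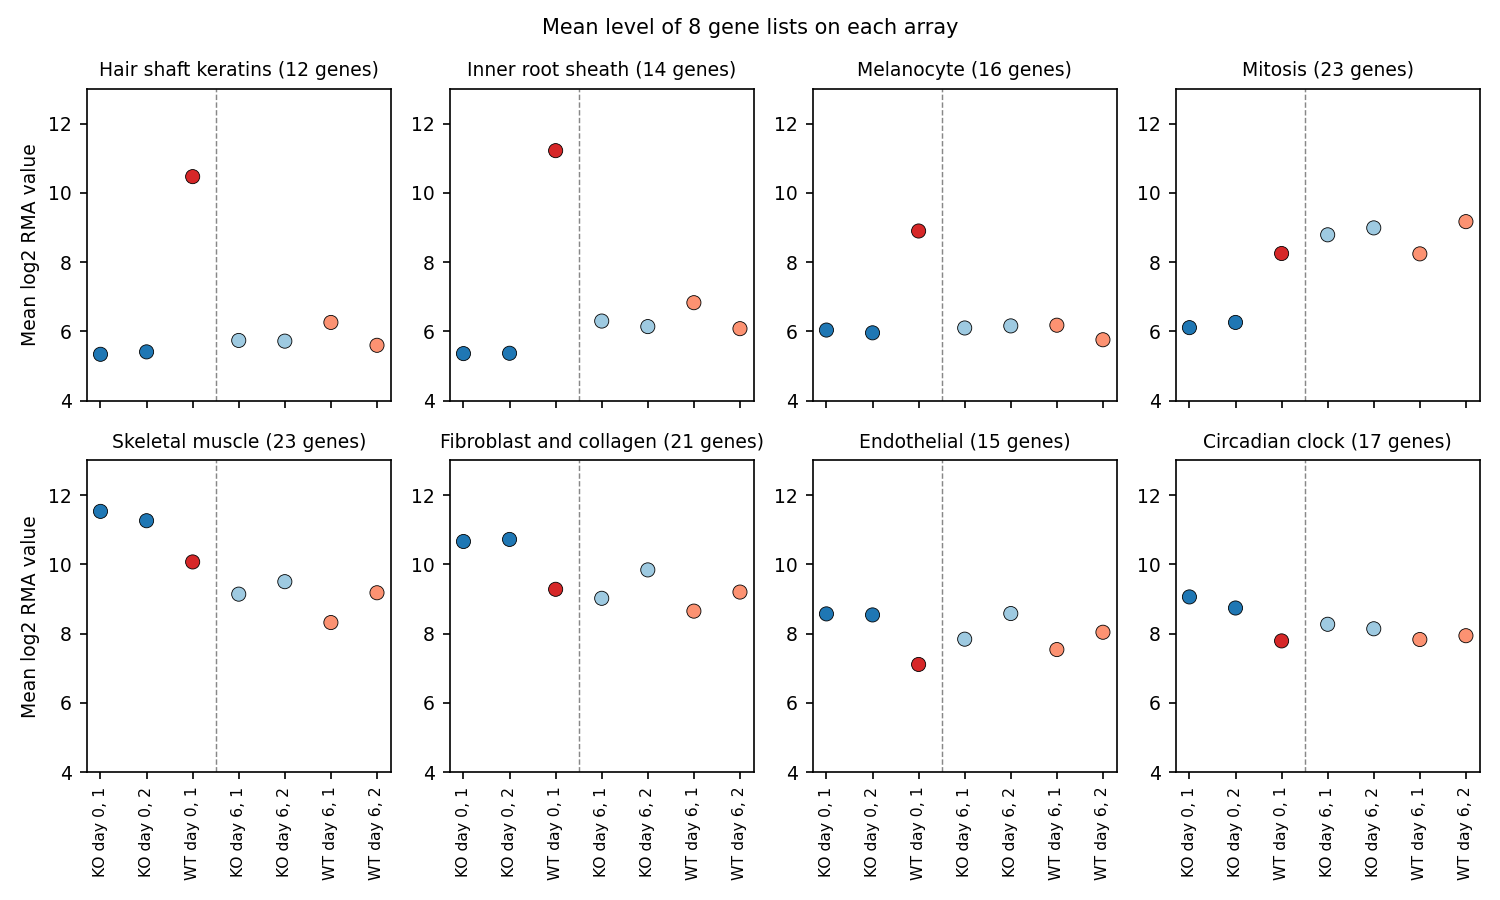
Mean log2 RMA value (y axis) of 8 gene lists on each of the 7 arrays (x axis, KO for knockout and WT for wild type with day and replicate number); dark blue is knockout and red wild type at day 0, pale colours are day 6, and each point is 1 array. Wild type at day 0 stands alone for hair shaft (10.47), inner root sheath (11.22) and melanocyte genes (8.90), knockout at day 0 stands alone for mitosis genes (6.11 and 6.26).

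The higher side was led by a complement gene and by muscle genes. C7, complement component 7, which joins the membrane attack complex, had the largest difference: 11.06 and 11.10 in knockout and 5.39 in wild type, or 5.69 ± 0.37 (SE; adjusted p = 0.000437). At day 6 it read 4.80 to 5.77 on all 4 arrays, so the 2 knockout day 0 arrays alone were high. Cyp2e1, a cytochrome P450 of fat and liver, had a like pattern (11.13 and 10.52 against 7.33, and 5.39 to 6.74 at day 6). Cpz, a carboxypeptidase that binds Wnt proteins, read 10.66 and 11.19 against 7.0.

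Of 23 skeletal muscle genes limma called 9 higher in knockout and 0 lower (median difference 1.12). The mean over the list was 11.53 and 11.26 in knockout, 10.07 in wild type and 8.32 to 9.50 at day 6. Ryr1, the calcium release channel, read 11.86 and 11.12 in knockout and 7.43 in wild type (difference 4.06 ± 0.65, SE; adjusted p = 0.011). Ttn, titin, read 12.19 and 11.59 against 8.59 (3.30 ± 0.69, adjusted p = 0.0252), and Myh1, a fast myosin, 12.22 and 11.95 against 9.96. Des, desmin, read 12.33 and 12.30 against 11.04, Atp2a1, the calcium pump, 12.84 and 12.68 against 11.37, and Actn3, of the Z-disc, 12.54 and 12.02 against 10.60. Other members differed less: Ckm, muscle creatine kinase, read 12.88 and 12.70 against 12.32 and Myl1 12.31 and 12.13 against 12.04, and neither passed.

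Further muscle genes filled the list of the 15 largest higher differences. Xirp1, an actin-binding protein of muscle attachment sites, read 11.54 and 12.26 against 6.84 (5.06 ± 0.37, SE; adjusted p = 0.000761). Ankrd1, a stress-responsive protein of the sarcomere, read 8.39 and 11.59 against 4.42, so the knockout arrays themselves were 3.20 apart on it. Flnc, muscle filamin, read 11.71 and 12.24 against 7.84, and Musk, the receptor kinase of the nerve-muscle synapse, 8.54 and 9.24 against 5.26. Klhl40 (9.46 and 11.26 against 5.83), Cacna1s (11.13 and 10.64 against 7.36), Mypn (10.26 and 9.81 against 6.13), Nrap (11.15 and 11.46 against 7.59) and Cmya5 (11.39 and 10.82 against 7.42) are muscle proteins too. Muscle signal was present in wild type as well, at a list mean of 10.07 against 11.53 and 11.26. Limma called 2 of the 23 without knockout day 0 replicate 1, 5 without replicate 2 and 0 with the term for Xist signal. With that term the median difference of the list was 0.27, against 1.12 without it. The part of muscle content in other differences was not tested.

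Of 21 fibroblast and collagen genes, 12 were higher in knockout, 1 was lower and 8 did not pass (median difference 1.56). Pdgfrb, a receptor of fibroblasts and vessel wall cells, read 10.35 and 10.58 in knockout and 7.38 in wild type (difference 3.08 ± 0.43, SE; adjusted p = 0.00702). The collagen VI chains Col6a1 (10.61 and 10.75 against 8.40) and Col6a2 (10.26 and 10.51 against 8.20) passed, as did Col5a1 (8.25 and 8.48 against 6.68) and Lox, which cross-links collagen (11.00 and 11.30 against 9.01). Fap, an enzyme of activated fibroblasts, was the one lower gene (7.0 and 6.92 against 8.37, -1.41 ± 0.26, adjusted p = 0.0161). Dcn, decorin, a collagen-binding proteoglycan, did not pass (12.64 and 12.54 against 12.52). Limma called 5 higher without knockout replicate 1, 3 without replicate 2 and 0 with the term for Xist signal, where the list's median was 1.22, and Fap passed in none of these.

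Of 15 endothelial genes 7 were higher in knockout by limma and 8 did not pass (median difference 1.33). All 15 lay above wild type on both knockout arrays, as 36% of all genes did. Pecam1, a junction protein of vessels, read 9.78 and 9.81 in knockout and 7.98 in wild type (difference 1.81 ± 0.30, SE; adjusted p = 0.0123). Cdh5, vessel cadherin, read 10.66 on both against 8.89, and Flt1, a VEGF receptor, 8.98 and 8.79 against 6.48. Flt4 and Prox1, of lymph vessels, read 6.80 and 6.72 against 4.35 and 5.62 and 5.36 against 4.43. The mean over the list was 8.57 and 8.54 in knockout, 7.11 in wild type and 7.54 to 8.58 at day 6. Limma called 2 or 3 without a knockout day 0 array and 0 with the term for Xist signal.

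Of 16 adipocyte genes 4 passed, all higher (median difference 0.55): Lep, leptin (10.71 and 10.52 against 9.42), Pnpla2, a triglyceride lipase (10.72 and 10.40 against 9.23), Plin4, a lipid droplet protein (10.13 and 9.48 against 8.0), and Slc2a4, the insulin-regulated glucose carrier (10.48 and 9.69 against 8.30). The adjusted p of these ranged from 0.0156 for Lep to 0.0321 for Slc2a4. The count was 0 without knockout replicate 1, 3 without replicate 2 and 0 with the term for Xist signal, where the median was 0.88. Among 8 nerve and Schwann cell genes, Mbp, myelin basic protein (9.09 and 8.98 against 7.91), and Pmp22 (12.35 and 12.27 against 11.37) were higher, and 6 did not pass. Neither passed without either knockout day 0 array or with the term for Xist signal.

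Of 14 basal keratinocyte genes, 7 were higher in knockout and 7 did not pass (median difference 0.82). Col17a1, a collagen of the hemidesmosome, read 11.23 and 11.41 in knockout and 9.19 in wild type (difference 2.14 ± 0.20, SE; adjusted p = 0.00173). Its partner Itgb4, integrin beta 4, read 10.61 and 10.70 against 8.76 (1.89 ± 0.18, adjusted p = 0.00214). The integrins Itga6 (11.40 and 11.54 against 10.21) and Itga3 (10.22 and 10.46 against 8.68), the laminin chain Lamb3 (9.64 and 9.82 against 7.61) and the plakin Dst (10.05 and 9.68 against 7.31) passed too. Krt14 and Krt5 did not, at 0.62 and 0.48 above wild type. The mean over the list was 10.13 and 10.40 in knockout, 9.21 in wild type and 10.62 to 10.80 at day 6. The count was 6 or 4 without a knockout day 0 array and 3 with the term for Xist signal.

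Of 18 genes of suprabasal differentiation 3 were higher: Hrnr, hornerin (11.82 and 11.95 against 9.99, adjusted p = 0.00463), Lor, loricrin (12.09 and 12.41 against 10.30), and Sbsn, suprabasin (11.54 and 11.62 against 10.65). Of 29 genes of the cornified envelope clusters 3 were higher and 3 lower. Sprr2f (5.33 and 5.70 against 6.89) and Lce1i (7.80 and 8.43 against 6.36) were examples of each, and copies within these families can share probes. Each direction rested on 1 knockout array: 3 were higher and 0 lower without replicate 1, 0 and 3 without replicate 2, and 1 and 0 with the term for Xist signal. The suprabasal count was 1 in each of these 3 fits. Among 20 stress keratinocyte and alarmin genes, S100a7a, an antimicrobial S100 protein, was the furthest lower (5.87 and 5.49 against 10.21, difference -4.53 ± 0.27, SE; adjusted p = 0.000275). Il1f9, a member of the interleukin 1 family, was higher (10.18 and 10.37 against 7.96). The injury keratin Krt16 (9.59 and 11.53 against 8.05) and Krt6b (7.54 and 11.40 against 6.47) did not pass, with the knockout arrays far apart on Krt6b. Of the 20 genes 1 was higher and 3 were lower; without replicate 1 these counts were 4 and 1, without replicate 2 they were 2 and 3, and with the term for Xist signal 1 and 1.

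Mt4, a metallothionein of stratified epithelium, read 8.39 and 9.15 in knockout and 12.39 in wild type (difference -3.62 ± 0.32, SE; adjusted p = 0.00147). The broadly made Mt1 (12.14 and 12.28 against 11.62), Mt2 and Mt3 did not pass.

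Of 17 clock genes, 8 were higher in knockout, 0 were lower and 9 did not pass (median difference 1.16). Nr1d1, a repressor whose RNA peaks by day in mice, read 10.93 and 11.18 in knockout and 7.82 in wild type (difference 3.24 ± 0.28, SE; adjusted p = 0.00139). Arntl, the activator that Nr1d1 represses, was higher too (8.48 and 8.81 against 7.39, 1.25 ± 0.22, adjusted p = 0.0155). Cry2 (9.15 and 8.96 against 7.12), Bhlhe40 (9.82 and 9.74 against 8.35), Bhlhe41 (8.10 and 7.99 against 6.29) and Rora (10.73 and 10.59 against 9.49) passed. Per2 read 9.0 and 7.70 against 7.03 and did not pass. CACGTG, the E-box that clock activators bind, was in 33.3% of 15 clock promoters against 8.11% of all. It was also in 26.7% of 15 cholesterol synthesis promoters. The time of day of sampling was not given in the sources used here; 5 or 6 genes passed without a knockout day 0 array and 3 with the term for Xist signal.

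Of 22 immediate-early genes, which cells and handled tissue switch on within minutes, 4 were higher, 0 were lower and 18 did not pass (median difference 0.73). The orphan receptors Nr4a1 (11.39 and 10.43 against 9.06), Nr4a2 (9.64 and 8.70 against 7.12) and Nr4a3 (10.05 and 9.40 against 7.46) passed, with adjusted p of 0.0327, 0.0156 and 0.0168. Klf4 differed by 0.84. Fos and Jun, whose protein products pair in AP-1, were above wild type by 1.42 and 0.73 without passing. The 2 knockout arrays were 0.96 apart on Nr4a1 with replicate 1 the higher, and the count was 1 without replicate 1 and 0 with the term for Xist signal.

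**Figure D4:**
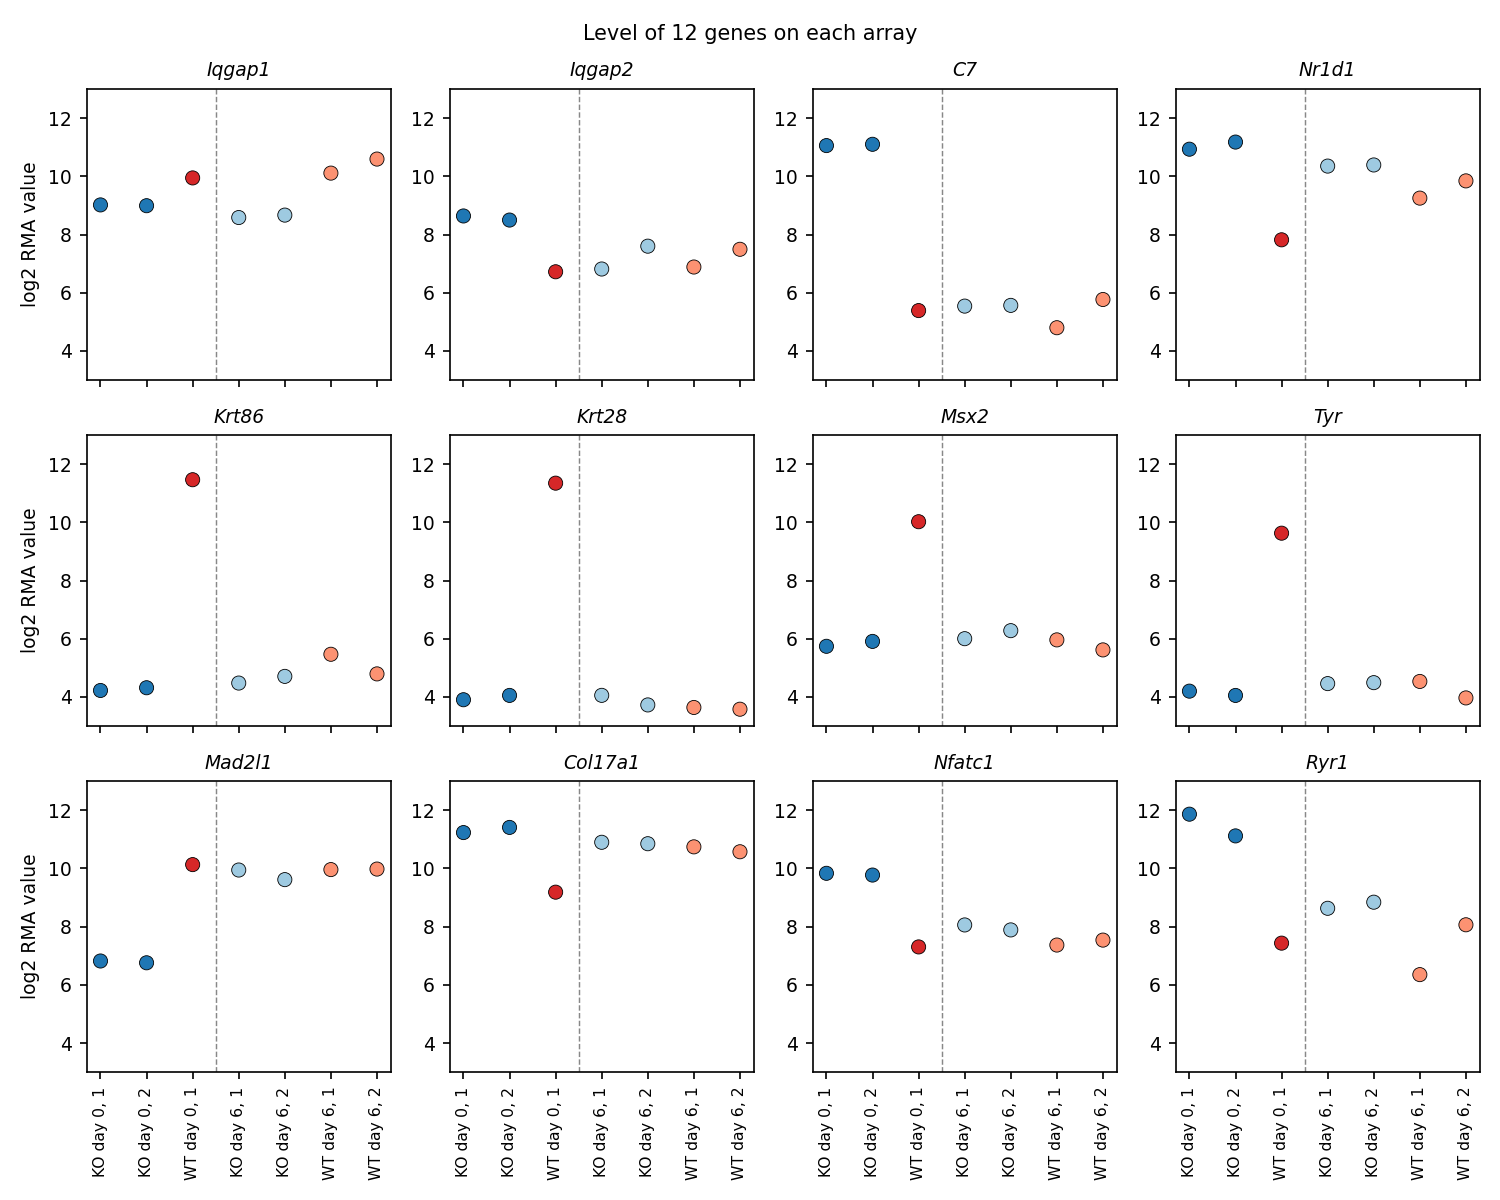
Log2 RMA value (y axis) of 12 genes on each of the 7 arrays (x axis, KO for knockout and WT for wild type with day and replicate number); dark blue is knockout and red wild type at day 0, pale colours are day 6, and each point is 1 array. Krt86, Krt28, Msx2 and Tyr are high in the wild-type day 0 array alone, C7 and Nfatc1 are highest on the knockout day 0 arrays, Mad2l1 is low there alone, and Iqgap1 is lower in knockout on both days.

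Of the other IQGAP genes 1 passed. Iqgap2, which encodes a scaffold of the same family, read 8.64 and 8.50 in knockout and 6.72 in wild type (difference 1.85 ± 0.38, SE; adjusted p = 0.0235), and at day 6 both genotypes overlapped (6.81 and 7.60 against 6.88 and 7.49). This call was lost without either knockout day 0 array and with the term for Xist signal (adjusted p = 0.272, in a range of 0.00571 to 0.272). Iqgap3, the member tied to cell division, read 5.36 and 5.83 against 6.02 (adjusted p = 0.673).

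Of the 12 measured genes of the Ras-ERK cascade 1 passed. Ksr1, a scaffold that holds RAF, MEK and ERK together, read 8.91 and 8.58 in knockout and 6.62 in wild type (difference 2.12 ± 0.21, SE; adjusted p = 0.00255). Braf read 9.12 and 9.15 against 10.06 (adjusted p = 0.116) and Nras 9.99 and 10.26 against 10.16. Of 15 ERK feedback and output genes 2 were higher: Fosl1, an AP-1 member (10.70 on both against 9.02, 1.68 ± 0.20, adjusted p = 0.0043), and Spry2, a feedback inhibitor (8.19 and 8.49 against 7.28). Of 11 EGF ligands and ErbB receptors Egf (7.27 and 6.86 against 5.29) and Hbegf (9.54 and 10.42 against 8.51) were higher, and Egfr did not pass (11.24 and 11.22 against 10.47). Over these 3 lists 5 of 38 members were called, against 14.4% of all genes tested. With the term for Xist signal the cascade had 1 higher and 1 lower, the feedback list 1 higher and the EGF list 1 higher.

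Immune lists gave few calls. The Langerhans, T cell and mast cell counts below were near the 14.4% of all genes that limma called. Of 16 macrophage, 13 neutrophil, 7 B cell and 17 interferon-stimulated genes limma called 0. The count was 5 interferon-stimulated genes higher and 1 lower without knockout replicate 1, and 0 without replicate 2. That list had a median difference of 1.08, with a mean level of 6.86 and 7.83 in knockout and 6.23 in wild type: Ifit3 read 8.49 and 10.23 against 7.32 and Oasl2 8.29 and 9.84 against 6.54. Knockout replicate 2 was the higher on both genes, and both arrays lay above wild type. Of 13 Langerhans and dendritic genes Itgax (6.33 and 6.49 against 5.13) and Cd207, langerin (7.67 and 8.13 against 6.84), were higher, and of 15 T cell genes Nkg7 and Il2rb were. Both counts were 0 without knockout replicate 2, and with the term for Xist signal 1 and 0. Of 12 mast cell genes 1 was higher, the transcription factor Gata2 (7.02 and 7.15 against 6.21), and 1 lower, the receptor Kit, which melanocytes also make (6.55 and 6.51 against 7.82). The Gata2 call was lost without either knockout day 0 array and with the term for Xist signal. That term also called 1 macrophage gene lower and 1 neutrophil gene higher.

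Among the other lists, 4 of 13 xenobiotic and estrogen response genes were higher. Esr1, the estrogen receptor, which binds 4OHT, read 8.88 on both knockout arrays and 7.43 in wild type (difference 1.45 ± 0.18, SE; adjusted p = 0.00516). Cyp2b10, a drug-metabolising enzyme, read 10.33 and 10.37 against 7.76. Of 14 glycolysis and hypoxia genes Slc2a1, a glucose carrier (11.00 and 11.27 against 9.63), Vegfa (9.99 and 9.46 against 8.31) and Hk2 (11.03 and 10.65 against 8.42) were higher. With the term for Xist signal 1 xenobiotic and 0 glycolysis genes were higher. Of 17 sebaceous gland genes 0 passed, and of 18 cholesterol synthesis genes 1 did, Idi1, which was lower (9.75 and 9.77 against 10.72). Of 10 heat shock genes Hspa1a was higher by 1.63, and of 23 cytokines Ccl22 was higher by 1.22 and Il1a lower (difference -1.69). Neither Hspa1a nor Ccl22 passed without knockout replicate 2, and with the term for Xist signal 0 heat shock genes passed while 1 cytokine was higher and 0 were lower. No Skint gene passed, of 7 measured. The cholesterol, heat shock and cytokine counts were below the 14.4% of all genes that limma called.

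The genes beside Iqgap1 on chromosome 7 were listed because an allele and its neighbours travel together in a mixed strain background. Of the 10 nearest measured genes on each side, 6 were higher, 1 was lower and 13 did not pass limma (median difference 0.19). Cpeb1, which binds RNA tails, read 7.0 and 6.98 in knockout and 5.32 in wild type (difference 1.67 ± 0.18, SE; adjusted p = 0.00325). Alpk3, a kinase of muscle, read 9.70 and 9.26 against 6.59 and Furin, a protein convertase, 10.50 and 10.70 against 9.18. Man2a2, Crtc3 and Zfp592 were higher by 1.70, 1.53 and 1.52. Blm, a helicase of DNA repair, was lower (5.0 and 4.92 against 6.55, adjusted p = 0.0476). Whether these follow the allele, the strain or the tissue was not tested.

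At day 6 limma called 0 genes between the genotypes, with 1182 at an unadjusted p under 0.05, against 6095 at day 0. Iqgap1 itself was not called at day 6 (difference -1.73 ± 0.20, SE, limma adjusted p = 0.504). The lack of calls therefore does not show that the genotypes were alike at day 6. The difference between genotypes was itself another size at day 0 than at day 6 for 619 genes (3.1%), 269 more positive at day 0 and 350 more negative. The hair and pigment lists supplied many: 29 of 37 keratin-associated, 11 of 12 hair shaft, 11 of 14 inner root sheath, 10 of 16 melanocyte, 9 of 21 hair matrix and 10 of 23 mitosis genes. None of the genes in the lists of 23 muscle, 21 fibroblast and collagen, 15 endothelial and 16 adipocyte genes was among them. Of muscle genes named outside the muscle list, Xirp1, Musk and Mypn were (4.24, 3.41 and 3.0 more positive at day 0). Ankrd1, Flnc, Klhl40, Cacna1s, Nrap, Cmya5 and Alpk3 were not. Fibroblast and muscle genes had median differences of 0.57 and 0.26 at day 6, and hair shaft genes -0.10.

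Of the 2869 genes called at day 0, 2191 had the same sign at day 6. The share of all genes with the same sign on both days was not counted, so this is not read as a repeat of the difference. At least 1 log2 unit in every pair of arrays on both days was seen for 4 genes higher in knockout and 2 lower. Wild-type day 6 replicate 1, the other array with Xist signal, leaned toward the wild-type day 0 array. It stood at least 1 log2 unit above the other 3 day 6 arrays for 67 of the 966 genes lower in knockout by the fold rule (6.94%), against 147 of all genes (0.737%). It stood as far below them for 96 of the 1600 higher genes (6%), against 193 of all (0.968%). The mean of the keratin-associated list, for example, was 6.22 on this array and 4.60 to 4.69 on the other 3.

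**Figure D5:**
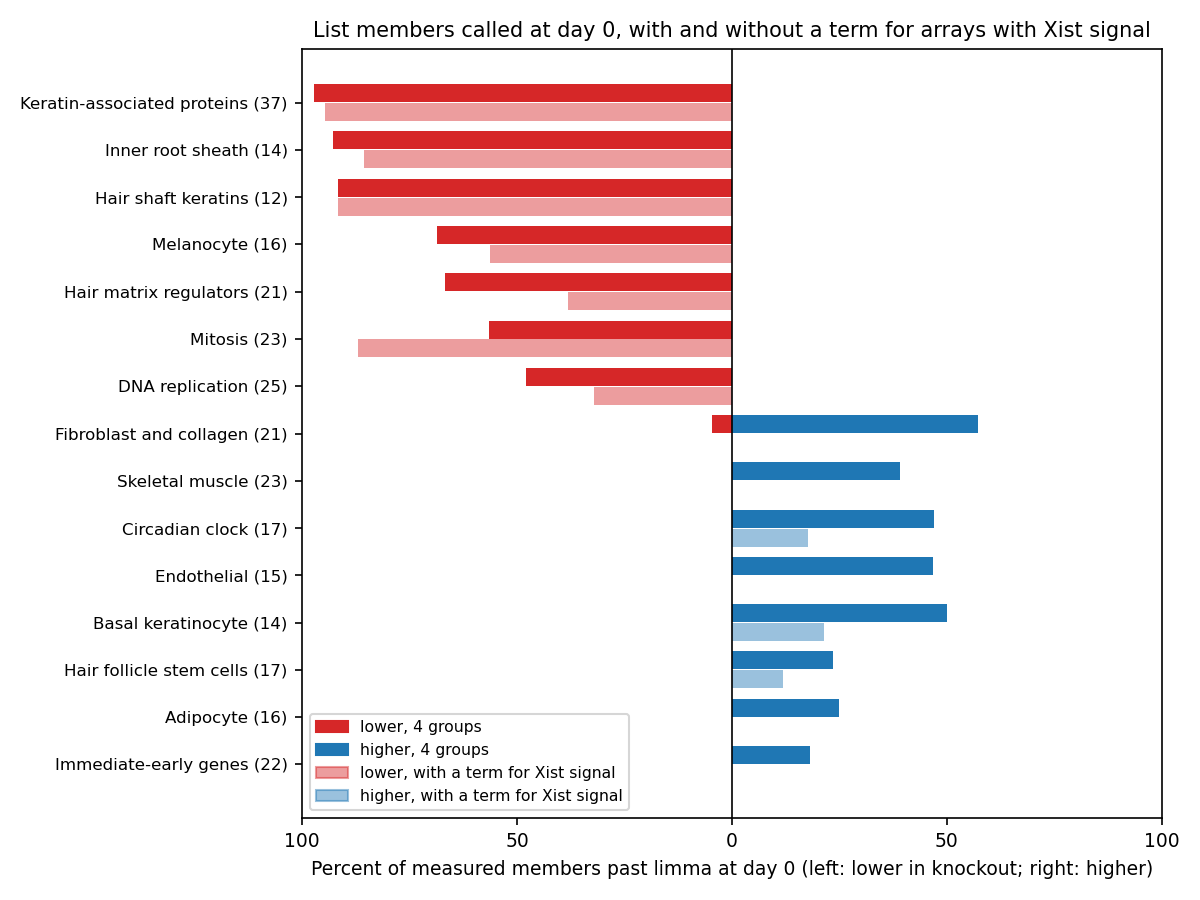
Percent of the measured members of 15 gene lists past limma at day 0 (x axis, lower in knockout to the left in red, higher to the right in blue; number of genes beside each name), in the fit of 4 groups (dark) and with a term for arrays with Xist signal (pale). Hair shaft, inner root sheath, keratin-associated and melanocyte lists have 11, 12, 35 and 9 genes lower with the term, while muscle, fibroblast and collagen, endothelial, adipocyte and immediate-early lists have 0. Their median differences with the term were 0.27, 1.22, 1.0, 0.88 and 1.02, against 1.12, 1.56, 1.33, 0.55 and 0.73 without it.

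The wild-type array set itself apart from all 6 others in part of these genes. Of the 966 genes lower in knockout by the fold rule, 319 were at least 1 log2 unit higher in wild type at day 0 than on any other array of the series. The 2 knockout day 0 arrays stood as far below all 5 others for 226. On the higher side, wild type at day 0 was the lone low array for 241 of 1600 genes and knockout at day 0 the high pair for 550. Over all genes the 2 knockout arrays correlated at r = 0.9915 with each other and at 0.9255 and 0.9257 with wild type at day 0, across genes, which are not independent replicates.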

How the data were processed

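RNA of 7 samples was hybridised to 1-colour Affymetrix Mouse Gene 1.0 ST arrays, 1 array a sample. The deposited values are on a log2 scale and were used unchanged; the submitters' processing notes name RMA as the authors' normalisation, with R 2.11.1. Of 34760 probe sets, 21640 name a single gene symbol in the platform annotation, 1321 name several and 11799 have no entry there. The probe set with the highest mean over the 7 arrays stood for each of 19937 genes.

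Groups were taken from sample titles. Day 0 knockout and wild type were compared with limma 3.58.1 in R 4.3.3, in a fit of 4 groups over all 7 arrays, with p-values adjusted by Benjamini-Hochberg over 19937 genes at a threshold of 0.05. The number of arrays limits the precision, and the lone wild-type array is assumed to vary like the others. The method was tested on simulated data that gave the lone array the same spread as the others. That test therefore cannot check the assumption.

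Genes named are Iqgap1 and its relatives, sex-linked genes, the 15 largest limma-called differences in each direction, up to 6 of the smallest p in each list, the 5 smallest p in each direction for the difference between days, and called neighbours of Iqgap1. Predicted genes, small RNAs, olfactory, vomeronasal and immunoglobulin genes were not named. List members named beyond this, most of them without a call, were chosen after their values were seen. Members and lists were chosen with earlier results of these data known. Of the genes 19855 matched RefSeq, whose promoters are on GRCm38.p6.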

Additional observations from a re-analysis of the deposited data

Results flagged for a closer look

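The difference between genotypes changed with the day for 619 genes by limma's test of that change, adjusted over all genes, and the following named genes are among them. The values are the day 0 difference minus the day 6 difference, in log2 units. The change was positive for C7 (5.42), Xirp1 (4.24), Alpk2 (3.80), Cyp2e1 (3.75), Musk (3.41), Ly6m (3.28), Usp13 (3.08), Mypn (3.0), Ifi202b (2.82), Sptb (2.57), Itga5 (2.53) and Cpeb1 (1.45). It was negative for Prr9 (-8.55), Crnn (-8.54), Krt28 (-7.65), Krtap19-1 (-7.49), Gprc5d (-7.43), Calhm4 (-7.42), Krtap14 (-7.13), Krtap11-1 (-7.0), Krt33a (-6.99), Krtap19-2 (-6.93), Krtap19-5 (-6.85), Krtap6-5 (-6.47), Krtap19-3 (-6.43) and Krtap26-1 (-6.30).

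By list, the same test called 29 keratin-associated, 11 hair shaft, 11 inner root sheath, 10 melanocyte, 10 mitosis, 9 hair matrix, 4 basal keratinocyte, 2 DNA replication, 2 stress keratinocyte and 2 circadian clock genes.

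Probe sets that stood for no gene in the comparison also differed. Of 14823 such probe sets, 457 (3.08%) were at least 1 log2 unit above wild type on both knockout day 0 arrays, and 703 (4.74%) as far below.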

How the results depend on the processing

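The counts of genes called at day 0, 1701 higher and 1168 lower, moved with the arrays used. With the day 0 arrays alone they were 2784 and 2194, and with the term for Xist signal 255 and 427. Leaving out 1 array at a time gave 754 to 2432 higher and 483 to 1896 lower. Leaving out both wild-type day 6 arrays, an alternative chosen after seeing the data, gave 1896 lower. The fold rule gave 3485 higher and 2866 lower at 0.5 log2 units and 266 and 300 at 2, and 1669 lower over all probe sets.

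At day 6, leaving out 1 array gave 0 to 13 higher and 0 to 30 lower, and all probe sets, or a trended and robust variance, gave 1 lower. For the change between days, leaving out 1 array gave 15 to 528 more positive and 128 to 510 more negative, and all probe sets 146 more positive. Median centring moved the median difference of all genes from -0.09 to -0.20 (1592 higher, 1459 lower), and repeated quantile normalisation to 0.00 (1599 and 1423). No named gene or list member that was called changed sign in these alternatives, while over all genes 2811 of 2812 shared calls kept their direction with the mean over probe sets. The medians of the neutrophil, sebaceous gland, B cell, Skint, stress keratinocyte and sex-linked lists changed sign in at least 1 alternative.

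With the replicate number as a block limma called 1432 higher and 968 lower, and 2223 of the 2869 calls were kept. Deviations of same-numbered arrays correlated at 0.086 (knockout day 0 and day 6), 0.037 (knockout day 0 and wild-type day 6) and 0.227 (knockout and wild type at day 6). These values cannot tell whether same-numbered arrays share more than a number.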
